A study of Mus musculus with 12 samples.

Results

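The membrane-spanning 4-domains subfamily A (MS4A) genes were examined in orthotopic 4T1 tumors, grown from a mouse mammary carcinoma line in Balb/c mice. The 8 genes described here (Ms4a4a, Ms4a4b, Ms4a4c, Ms4a6b, Ms4a6c, Ms4a6d, Ms4a7 and Ms4a8a) were chosen by name among the 55401 genes of the expression table, which holds 21 genes with an Ms4a symbol. The tumors came from 4 groups of 3 samples, 1 library of polyadenylated RNA each. Control mice received an isotype IgG1-Fc. The other groups received IL-10-Fc (interleukin-10 joined to an Fc part), aCSF1R (an antibody that binds CSF1R, the receptor for colony stimulating factor 1) or BF10, in which human interleukin-10 is joined to the C-terminus of the AFS98 antibody against that receptor. Dosing, 2 times per week, began at a tumor volume of 100 mm3. The labels give 6 doses and the series text 4, so the number of doses is uncertain, and neither the labels nor the methods give the sex of the mice that bore these tumors. Tumors are named by the numbers in their titles.

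MS4A proteins cross the membrane 4 times and sit beside immune receptors, whose signaling they adjust. The family arose by gene duplication, and its members divide among blood lineages: Ms4a1 (CD20) marks B cells, Ms4a2 is the beta chain of the high-affinity IgE receptor of mast cells and basophils, and Ms4a3 is expressed in granulocyte precursors. The Ms4a4a, Ms4a6 and Ms4a7 genes are known from monocytes, macrophages and microglia, and Ms4a4b from T cells. Macrophages depend on signals through the CSF1 receptor, so antibodies against it are used to deplete them, and interleukin-10 acts on macrophages and on T cells.

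The 8 genes lie in 1 cluster on chromosome 19 (GRCm38, chr19:11067471-11604849), a stretch of 537 kb that also holds MS4A genes not among the 8. Ms4a8a (chr19:11067471-11081102) and Ms4a7 (chr19:11321039-11336146) are on the minus strand. Ms4a4a (chr19:11375523-11392790), Ms4a4c (chr19:11404770-11427246), Ms4a4b (chr19:11443553-11467055), Ms4a6c (chr19:11469366-11482192) and Ms4a6b (chr19:11516512-11531256) follow on the plus strand, and Ms4a6d (chr19:11586604-11604849) closes the row on the minus strand. Between their longest coding sequences, identity was 45.0% to 91.7%. The closest pair was Ms4a4b and Ms4a4c, with 91.7% identity and a shared run of 127 bases. Ms4a6b shared 80.2% with Ms4a6d and 75.6% with Ms4a6c, with shared runs of 81 and 55 bases. Where a shared run is as long as a read, the authors' program had to divide reads between the genes, so values of Ms4a4b against Ms4a4c and of Ms4a6b against Ms4a6d carry that uncertainty.

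RefSeq promoters (GRCm38.p6) were found for 7 of the 8 genes, with 2 windows for Ms4a7, and Ms4a6d had no entry. The windows of 4 genes are printed because they set the 2 genes that are most alike in coding sequence (Ms4a4b and Ms4a4c) beside 2 myeloid members (Ms4a6c and Ms4a7). Each is written 5′ to 3′ on the gene's strand and ends at or just before the RefSeq start, without bases that an annotated exon of the gene covers. That start can lie inside the span given above, as for Ms4a4c, whose span begins with the first base of another transcript. Capitals mark the letters GGAAGT (bound by ETS factors such as PU.1) or GAAANNGAA (the core of an interferon-stimulated response element) on either strand.
Ms4a4b (chr19:11443308-11443552, plus strand): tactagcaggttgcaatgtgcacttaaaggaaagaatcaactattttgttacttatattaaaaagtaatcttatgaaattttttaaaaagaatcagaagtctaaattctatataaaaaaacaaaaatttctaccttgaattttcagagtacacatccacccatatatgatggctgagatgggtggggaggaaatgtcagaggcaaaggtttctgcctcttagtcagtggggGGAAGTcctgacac
Ms4a4c (chr19:11407411-11407660, plus strand): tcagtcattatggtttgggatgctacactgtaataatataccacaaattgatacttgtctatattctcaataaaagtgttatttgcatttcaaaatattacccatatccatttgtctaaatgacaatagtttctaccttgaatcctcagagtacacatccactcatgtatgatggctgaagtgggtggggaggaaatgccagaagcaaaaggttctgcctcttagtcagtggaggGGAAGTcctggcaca
Ms4a6c (chr19:11469118-11469365, plus strand): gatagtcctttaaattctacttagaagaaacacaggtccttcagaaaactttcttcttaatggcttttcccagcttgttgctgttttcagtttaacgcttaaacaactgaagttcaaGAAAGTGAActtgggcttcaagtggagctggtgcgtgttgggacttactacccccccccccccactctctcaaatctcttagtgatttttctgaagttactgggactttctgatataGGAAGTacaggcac
Ms4a7 (chr19:11336147-11336396, minus strand): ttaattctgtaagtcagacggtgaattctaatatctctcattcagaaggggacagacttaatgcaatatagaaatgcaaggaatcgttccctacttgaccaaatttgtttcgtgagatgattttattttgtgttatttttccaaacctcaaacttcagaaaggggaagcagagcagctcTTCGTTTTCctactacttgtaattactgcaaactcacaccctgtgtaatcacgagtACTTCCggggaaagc

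GGAAGT stood in 5 of the 8 windows of 250 bases, those of Ms4a4b, Ms4a4c, Ms4a6b, Ms4a6c and the outer window of Ms4a7, against 19.7% of the 32851 promoters searched. In Ms4a4b, Ms4a4c, Ms4a6c and Ms4a7 it began 19, 15, 16 and 15 bases before the start. GAAANNGAA stood in 4 windows (Ms4a6b, Ms4a6c and both of Ms4a7), against 7.1% of all promoters. TTNNGNAA, a loose C/EBP motif, was in all 8 windows and in 36.8% of promoters, while TTGCGCAA, the full C/EBP palindrome, and TTCNNNGAA, a STAT motif, were in 0 of 8, against 0.2% and 7.0%. No printed match overlapped a match of another motif. Windows of duplicated genes are not independent: a stretch of 133 alignment columns of the Ms4a4b and Ms4a4c windows was 88.0% identical, and a stretch of 180 columns of the Ms4a6b and Ms4a6c windows was 82.2% identical. These are matches of letters, and no binding was measured.

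Values are given as TPM (transcripts of a gene per 1000000 transcripts), which are per length and can be compared between genes. Depth was estimated at 32300000 to 37600000 reads for each library, given reads of 75 bases. The libraries fell into 2 sets by the sum of their deposited FPKM values, 5 with a higher sum (control 4 and 7, BF10 6, IL-10-Fc 7 and aCSF1R 8) and 7 with a lower sum, with mitochondrial genes at 5.90% to 9.26% and 3.14% to 3.96% of the total. Control holds 2 higher-sum libraries and each treated group 1, so results against control are also given with a model term for the set. A gene was called changed at an adjusted p under 0.05 (limma, Benjamini-Hochberg over 15504 tested genes) with a change of at least 1.5-fold. All 8 members passed the filter on low values. Each adjusted p below is from limma.

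The members spanned a wide range of levels, and the Ms4a6 genes led it. In control tumors the mean level was 213 TPM ± 76.9 (SD, n = 3) for Ms4a6d, 81.5 ± 30.4 for Ms4a6b, 77.7 ± 8.57 for Ms4a6c and 51.1 ± 28.4 for Ms4a7. Below them stood Ms4a4a (20.6 ± 11.4), Ms4a4c (15.7 ± 3.26), Ms4a4b (15.0 ± 5.30) and Ms4a8a (4.14 ± 1.54). The ranges of Ms4a6b, Ms4a6c and Ms4a7 overlapped, as did those of Ms4a4a, Ms4a4c and Ms4a4b, while Ms4a6d stood above and Ms4a8a below all other members in the control tumors. Summed over the 8 genes, the level was 342 to 603 TPM in control, 73.5 to 107 in aCSF1R, 471 to 663 in BF10 and 371 to 496 in IL-10-Fc. The aCSF1R range lay below that of every other group, and the other 3 groups overlapped.

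**Figure D1:**
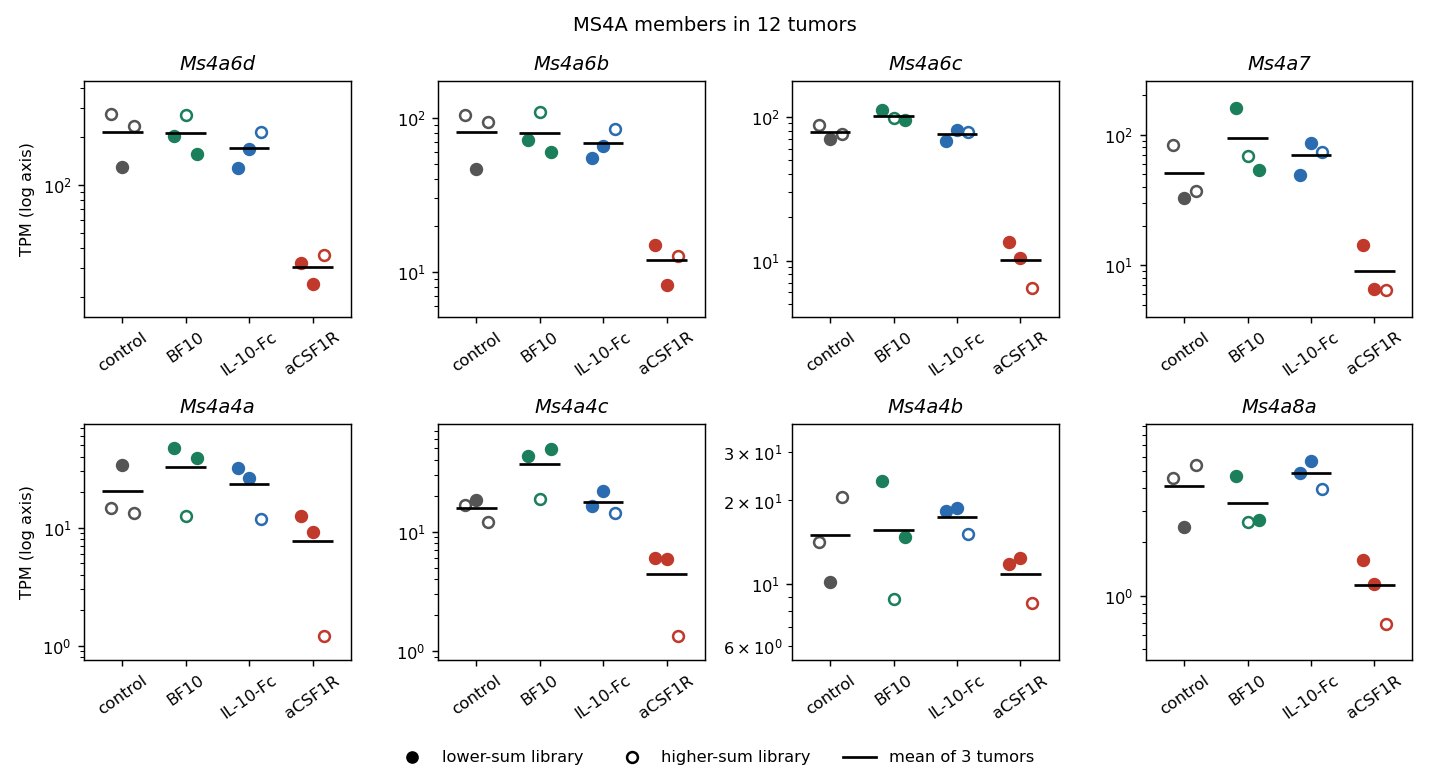
TPM on a log axis for each of the 8 MS4A genes in 12 tumors, 3 per group. Filled points are lower-sum libraries, open points higher-sum libraries and black lines group means of TPM. The 3 aCSF1R points lie below all control points in every panel except Ms4a4b.

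Against control, aCSF1R tumors had lower means of all 8 genes, and 3 members fell past the threshold: Ms4a6b, Ms4a6c and Ms4a6d. The background was 0.568% of tested genes called (88 of 15504, all lower). The median change of the 8 members was -2.04 on the log2 scale, while that of all tested genes was 0.24 (0.034 with median-of-ratios scaling). In 7 of 8 members the groups did not overlap with aCSF1R lower, against 3.68% of all tested genes. In bulk tissue, fewer cells of a type and less RNA per cell cannot be told apart. With the set as a term, 6 members were called (Ms4a4a, Ms4a4c and Ms4a7 in addition), against a background of 2.01%. Comparisons that involve control share its 3 tumors, and those that involve aCSF1R share its 3 tumors, so their results are not independent.

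Ms4a6c gave the tightest control values of the Ms4a6 genes. Its level was 86.9, 70.0 and 76.1 TPM in control 4, 5 and 7, and 13.5, 10.4 and 6.49 TPM in aCSF1R 4, 6 and 8. Every aCSF1R tumor lay far below every control tumor. The change was -2.87 on the log2(TPM + 1) scale (SE 0.25, adjusted p 0.000459), and -2.91 with the set as a term (adjusted p 4.53e-05). Only this member was also called among the lower-sum libraries alone (2 aCSF1R tumors against 1 control), at -2.47 with an adjusted p of 0.0349.

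Ms4a6d, whose protein is known to join VSIG4 in restraining the NLRP3 inflammasome of macrophages, was the most abundant member in every group. Control tumors held 278, 128 and 233 TPM, and aCSF1R tumors 32.3, 23.9 and 36.2 TPM. The lowest control value came from control 5, the lower-sum library, and still stood above all aCSF1R values. The change was -2.70 (SE 0.34, adjusted p 0.00337). With median-of-ratios scaling of the libraries it was -2.93 and not called (adjusted p 0.0941).

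Ms4a6b was at 104, 46.8 and 93.7 TPM in control and at 14.9, 8.17 and 12.6 TPM in aCSF1R. The groups did not overlap, and control 5 was again the lowest of its group. The change was -2.64 (SE 0.36, adjusted p 0.00596), and -2.86 with median-of-ratios scaling, where it was not called (adjusted p 0.0962). Within the higher-sum libraries (1 aCSF1R tumor against 2 controls) all 8 members were lower in aCSF1R, by -3.46 to -0.93, and within the lower-sum libraries (2 against 1) 7 of 8 were lower, with Ms4a4b at 0.23. Ms4a6b and Ms4a6d themselves stood 0.60 and 0.63 higher in the higher-sum than in the lower-sum libraries with the groups held in the model (adjusted p 0.0082 and 0.0016).

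Ms4a7, a macrophage and microglia gene, had the widest spread in control relative to its mean among the abundant members. It was at 83.8, 32.6 and 36.9 TPM in control and at 14.2, 6.63 and 6.44 TPM in aCSF1R, without overlap. The change of -2.32 (SE 0.49) did not pass (adjusted p 0.0906). With the set as a term the estimate was -2.33, the adjusted p 0.0342 and the gene was called, though in 8 of 12 fits that each left out 1 library it was not.

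Ms4a4a, whose product is known to associate with dectin-1 on macrophages, differed strongly between the library sets. It was at 14.7, 33.7 and 13.3 TPM in control and at 12.7, 9.20 and 1.20 TPM in aCSF1R. The high control value and the higher aCSF1R values came from lower-sum libraries, and the groups were separated by the narrow gap between 13.3 and 12.7. Higher-sum libraries were 1.64 lower on the log2 scale (a difference of -1.64, adjusted p 3.28e-05). The change of -1.56 (SE 0.73, adjusted p 0.894) was not called, and with the set as a term it was -2.10 (SE 0.26, adjusted p 0.0013) and called. Without aCSF1R 8 it was -0.75, and with sample quality weights -0.35.

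Ms4a4c was at 16.7, 18.4 and 12.1 TPM in control and at 6.03, 5.94 and 1.35 TPM in aCSF1R. All aCSF1R tumors were lower, aCSF1R 8 by the most. The change was -1.76 (SE 0.48, adjusted p 0.319), and -2.06 with the set as a term (adjusted p 0.00239), which passed, as did -2.05 with median-of-ratios scaling (adjusted p 0.00708). It too differed between the sets (-0.90 in the higher-sum libraries, adjusted p 0.0022).

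Ms4a8a, a gene reported in alternatively activated macrophages, was at 4.58, 2.43 and 5.42 TPM in control and at 1.58, 1.17 and 0.695 TPM in aCSF1R. The values did not overlap, and the lowest rests on an estimated 23 reads, against 188 in the highest library, so counting error is large here. The change was -1.23 (SE 0.32, adjusted p 0.266, and 0.0609 with the set as a term) and was not called, on a scale that understates changes of so low a gene.

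Ms4a4b, the T cell member, was the exception. It was at 14.2, 10.2 and 20.7 TPM in control and at 11.8, 12.4 and 8.52 TPM in aCSF1R, so the groups overlapped. The change was -0.39, with a 95% confidence interval of -1.20 to 0.42 (adjusted p 0.894), and -0.48 with the set as a term (adjusted p 0.985). The interval of Ms4a6c, -3.42 to -2.31, lay apart from it. The interval of Ms4a4c, the gene closest to Ms4a4b in coding sequence, was -2.83 to -0.70 and overlapped it.

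**Figure D2:**
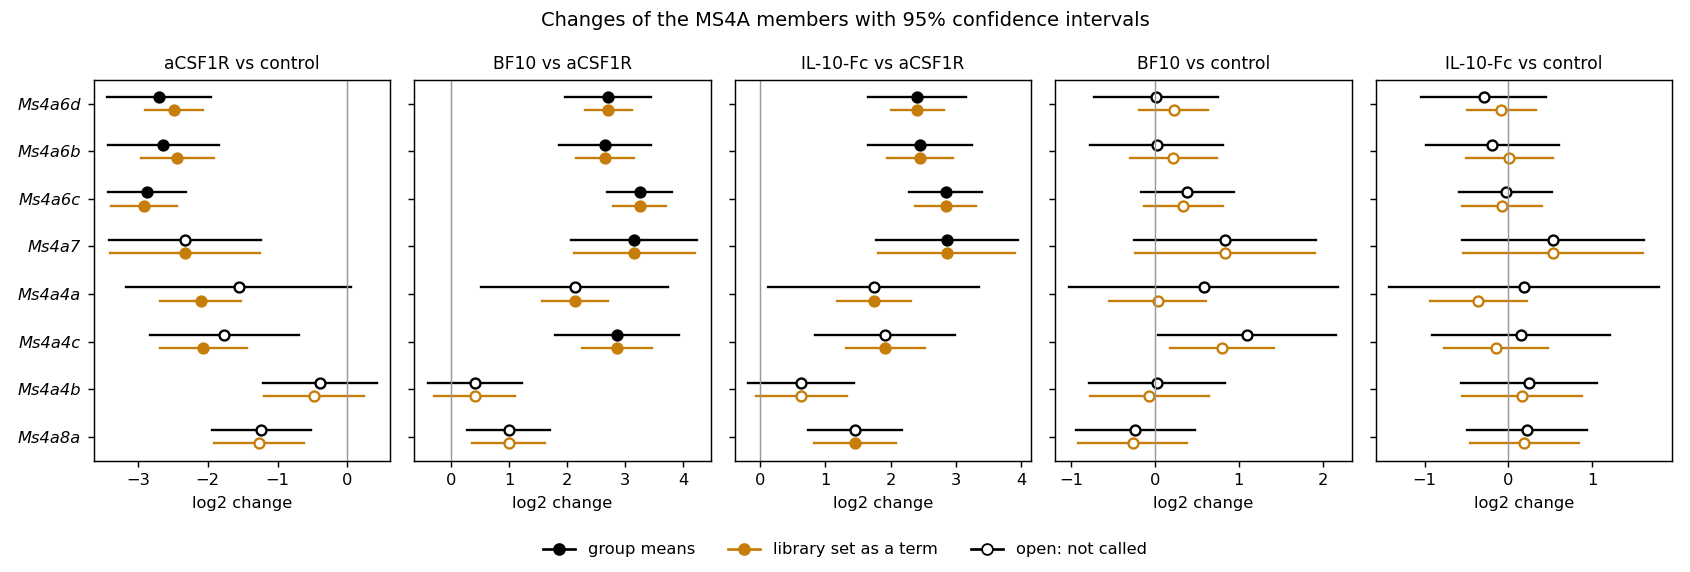
Log2 changes of the 8 genes (points) with 95% confidence intervals (lines) in 5 comparisons, from group means (black) and with the library set as a term (orange). Filled points were called, such as Ms4a6c at -2.87 for aCSF1R vs control, while no point is filled in the 2 panels of BF10 vs control and IL-10-Fc vs control.

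BF10 tumors were compared with aCSF1R tumors because both proteins carry an antibody against the CSF1 receptor and only BF10 carries interleukin-10. All 8 members had higher means in BF10, and 5 rose past the threshold: Ms4a4c, Ms4a6b, Ms4a6c, Ms4a6d and Ms4a7. The background was 0.735% (114 of 15504 genes, all higher), and with the set as a term it was 2.82% and 6 members were called. The groups did not overlap in 6 of 8 members with BF10 higher, against 4.33% of tested genes. The median change was 2.68 for the members. The 2 groups each hold 1 higher-sum library, so the estimates were the same in both models.

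Ms4a6c was at 111, 98.1 and 95.5 TPM in BF10 3, 6 and 7. Against aCSF1R the change was 3.25 (SE 0.25, adjusted p 0.000269). Ms4a7 was at 161, 68.7 and 53.5 TPM, and its change was 3.16 (SE 0.49, adjusted p 0.0131). Ms4a7 was not called without BF10 3, the tumor with the highest value (adjusted p 0.0559), or without aCSF1R 6 (0.0743).

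Ms4a4c was at 42.8, 18.7 and 49.7 TPM in BF10. Its lowest value came from the higher-sum library and was just above the highest control value, 18.4 TPM. The change against aCSF1R was 2.86 (SE 0.48, adjusted p 0.0205), which was lost without BF10 3 (0.118), without BF10 7 (0.11) or with no filter on low values (0.0546). Ms4a6d (201, 272 and 156 TPM in BF10) and Ms4a6b (72.3, 108 and 60.2 TPM) rose by 2.71 and 2.65 against aCSF1R (adjusted p 0.00398 and 0.00606), and neither was called with median-of-ratios scaling (adjusted p 0.16 and 0.163). In both, the higher-sum BF10 6 was highest, the reverse of Ms4a4c.

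Ms4a4a was at 47.1, 12.6 and 38.6 TPM in BF10, so that BF10 6 overlapped aCSF1R 4 at 12.7. The change of 2.13 (SE 0.73, adjusted p 0.621) was not called, and was with the set as a term (adjusted p 0.000683). Ms4a8a (4.66, 2.59 and 2.67 TPM) was 0.99 higher (SE 0.32, adjusted p 0.526) and was not called in either model. Ms4a4b (23.5, 8.83 and 14.8 TPM) overlapped aCSF1R, with a difference of 0.41 (95% confidence interval -0.40 to 1.22).

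IL-10-Fc tumors, treated with interleukin-10 without the antibody, gave a like order of members against aCSF1R. Ms4a6b, Ms4a6c, Ms4a6d and Ms4a7 rose past the threshold, 4 of 8 against a background of 0.542%. With the set as a term 7 of 8 were called, all but Ms4a4b, against 2.13%. In 7 of 8 members every IL-10-Fc tumor was above every aCSF1R tumor (Ms4a4a was the exception), against 5.90% of tested genes. The largest changes among the 8 were those of Ms4a7 (2.86, adjusted p 0.0302) and Ms4a6c (2.84, adjusted p 0.000982). Ms4a6c alone was called without aCSF1R 6, without IL-10-Fc 4 or without IL-10-Fc 7, and 2 members without IL-10-Fc 2. With median-of-ratios scaling Ms4a6b, Ms4a6d and Ms4a7 were not called (adjusted p 0.352, 0.4 and 0.123), while Ms4a4c was (0.0196). Ms4a7 was also lost with no filter on low values (0.0769).

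In IL-10-Fc 2, 4 and 7, Ms4a6d was at 127, 166 and 214 TPM, Ms4a6c at 68.1, 81.2 and 78.9 TPM and Ms4a6b at 55.3, 65.8 and 84.2 TPM. Ms4a7 was at 49.4, 86.7 and 73.4 TPM. Ms4a6d and Ms4a6c each had 1 tumor just below the control range and Ms4a7 had 1 just above it, while Ms4a6b lay inside.

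BF10 and IL-10-Fc were each compared with control to ask whether either treatment shifted the family. BF10 also carries the antibody, so only IL-10-Fc vs control concerns interleukin-10 without it. In BF10 vs control 0 of 8 members were called by limma in either model, against a background of 0% of tested genes (0.00645% with the set as a term), and 1 member, Ms4a4c, had an unadjusted p under 0.05. In IL-10-Fc vs control 0 of 8 were called in either model, with 0 at an unadjusted p under 0.05, against 0.00645% (0.0258% with the set as a term). The median change of the members was 0.20 in BF10 and 0.17 in IL-10-Fc, below the medians of all tested genes (0.32 and 0.35). With the set as a term, the medians were 0.22 and -0.03 for the members and 0.068 and 0.10 for all tested genes.

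Ms4a4c had the largest difference of group means between BF10 and control among the members, and Ms4a7 (0.83) the largest with the set as a term. For Ms4a4c, BF10 was 1.10 higher on the log2 scale (SE 0.48, 95% confidence interval 0.03 to 2.16, adjusted p 0.789). With the set as a term it was 0.80 higher (adjusted p 0.994). Its lowest BF10 value, 18.7 TPM, was just above its highest control value, 18.4 TPM. Ms4a6c was higher in BF10 by 0.38 (95% confidence interval -0.17 to 0.94), also without overlap. Neither passed the test over all genes, and the share of all tested genes without overlap was not counted for this comparison. For Ms4a6d, Ms4a6b and Ms4a4b the BF10 difference was between 0.01 and 0.02, and their widest interval reached from -0.79 to 0.83.

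BF10 and IL-10-Fc did not differ past the threshold in any member. By limma 0 of 8 were called in either model, against a background of 0% in both, and 0 had an unadjusted p under 0.05 (1, Ms4a4c, with the set as a term). Ms4a6c was higher in BF10 by 0.41 (95% confidence interval -0.14 to 0.97, adjusted p 1). All 3 BF10 tumors lay above all 3 IL-10-Fc tumors, but the share of tested genes that did so was not counted. The Ms4a4c difference was 0.94 (95% confidence interval -0.12 to 2.01), and IL-10-Fc tumors held 16.5, 22.1 and 14.3 TPM of it.

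Genes that were called in aCSF1R vs control and genes that were not stood side by side in the cluster. Ms4a4b, with a change of -0.39, lay next to Ms4a6c, with -2.87, and Ms4a4d, with 0.39, lay between Ms4a6b (-2.64) and Ms4a6d (-2.70).

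**Figure D3:**
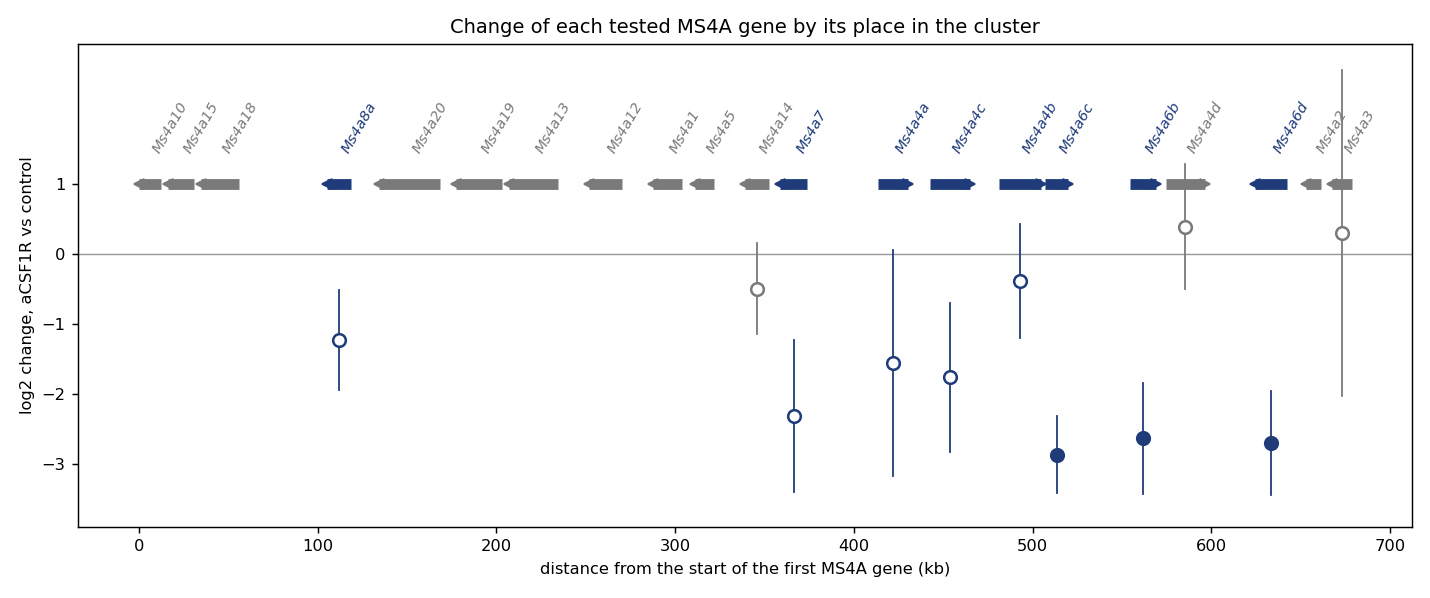
Log2 change in aCSF1R vs control with its 95% confidence interval for the 11 tested MS4A genes of the cluster, by distance in kb from the start of the first MS4A gene. Arrows mark each gene and its strand (blue for the 8 members, grey for other MS4A genes), filled points were called, and genes without a point did not pass the filter. Ms4a4b (-0.39) and Ms4a6c (-2.87) are neighbours.

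The tumors were then described by lineage markers, since the family divides by lineage. The macrophage list (14 genes such as Adgre1, C1qa and Msr1) summed to 4622 to 6500 TPM in control, 306 to 1193 in aCSF1R, 4156 to 6697 in BF10 and 3812 to 5745 in IL-10-Fc. In aCSF1R vs control 8 of its 14 genes were called lower, against a background of 0.568% (12, against 2.01%, with the set as a term). The median of the 14 was -2.77. Macrophage markers thus moved with the Ms4a6 genes and Ms4a7, and their part in those changes was not tested. No macrophage marker was at 0 in any library. Of the 10 monocyte markers 1 was called lower, the chemokine receptor gene Ccr2 (-2.57, adjusted p 0.00137), and 2 with the set as a term. The median of the 10 was -0.01. Of 13 tested T cell markers 0 were called by limma and 0 had an unadjusted p under 0.05, with a median of 0.01, and the list summed to 35.3 to 62.0 TPM in control and 21.0 to 63.6 in aCSF1R. The neutrophil, dendritic cell, NK cell, B cell, epithelial and interferon response lists had 0 of 49 tested genes called by limma in aCSF1R vs control (4 at an unadjusted p under 0.05), and 2 with the set as a term, Itgax and Klrk1. Epithelial markers, those of the carcinoma cells, summed to 684 to 2320 TPM over the aCSF1R tumors and 967 to 2217 over the controls. The 9 mast cell and basophil markers were higher in aCSF1R with a median of 1.91 but 0 were called by limma (5 at an unadjusted p under 0.05, and 1 called with the set as a term, Cma1).

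Beside the macrophage list, the members differed in how far they kept their distance from it. The measure was the member's log2(TPM + 1) minus the mean log2(TPM + 1) of the 14 macrophage genes in the same library. That mean was 6.28 in control and 3.70 in aCSF1R. Any gene that fell less than the list therefore stands higher in aCSF1R on this measure. The share of all tested genes with the aCSF1R tumors above the other 9 was not counted. For Ms4a6b it was 0.01 ± 0.93 in control and -0.05 ± 0.92 in aCSF1R, and for Ms4a6d 1.39 ± 0.90 and 1.28 ± 1.01 (SD, n = 3). Ms4a6c (0.01 and -0.27) and Ms4a7 (-0.71 and -0.44) also overlapped between these groups. Ms4a4b stood at -0.14 ± 0.58 in aCSF1R, where all 3 tumors lay above the other 9, and at -2.33 ± 0.71 in control, -2.20 ± 0.16 in IL-10-Fc and -2.50 ± 0.25 in BF10. Ms4a8a stood at -3.97 ± 0.76 in control and -2.62 ± 0.53 in aCSF1R, again with all 3 aCSF1R tumors above the other 9. For so low a gene the pseudocount of 1 limits how far the value can fall. Ms4a4c and Ms4a4a lay between, at -2.24 and -1.97 in control and -1.42 and -0.94 in aCSF1R. In BF10 they were at -1.33 and -1.58 and in IL-10-Fc at -2.195 and -1.89. The higher value of Ms4a4c than in control was thus not particular to aCSF1R. In aCSF1R 8 these genes were at 1.35 and 1.20 TPM, where the pseudocount limits the value too. With 3 against 3 tumors an exact permutation test cannot give a two-sided p below 0.1, so none is given. A test of the 3 aCSF1R tumors against the other 9 was not run.

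**Figure D4:**
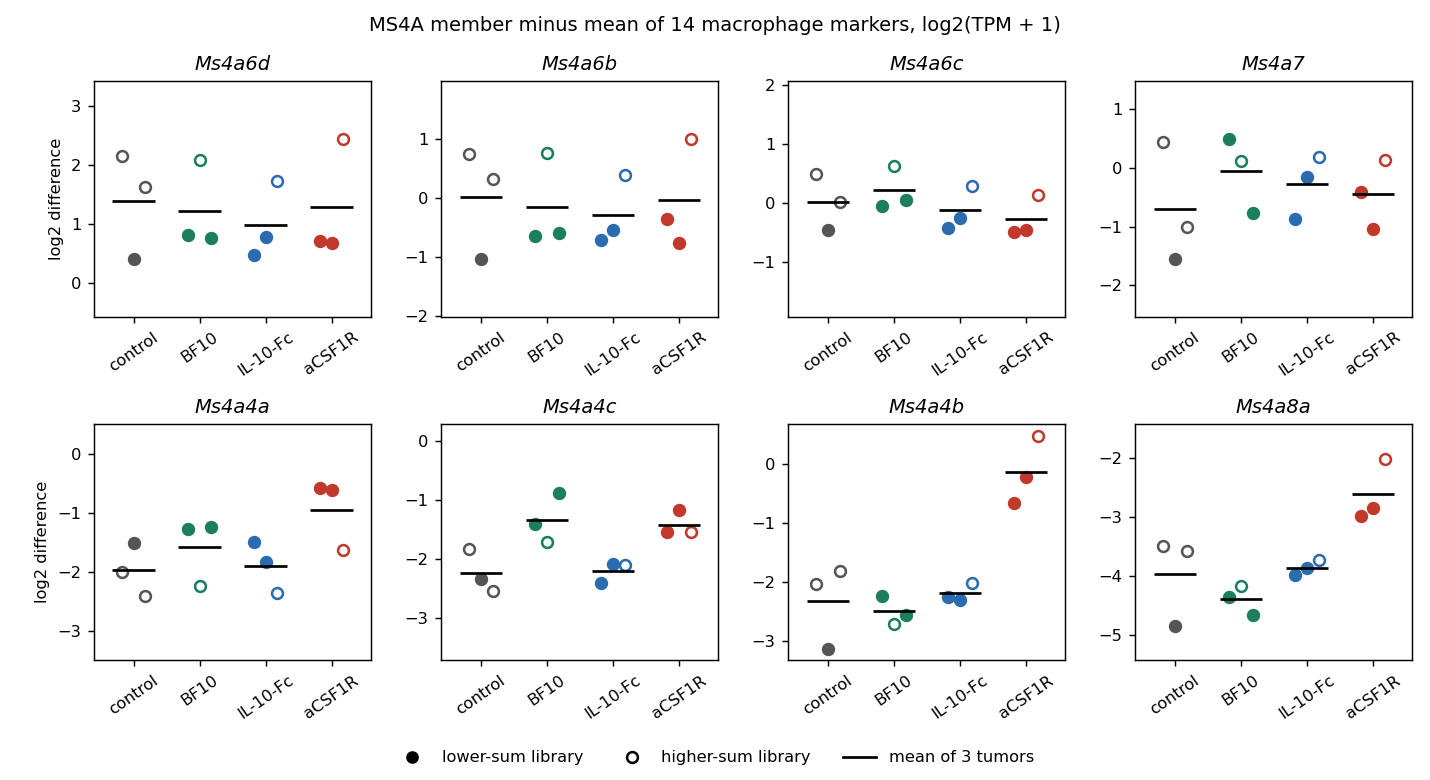
Difference between each member and the mean of 14 macrophage markers on the log2(TPM + 1) scale, per tumor and group, with black lines for group means. Every panel spans 4 units, and a gene that fell less than the markers in aCSF1R stands higher there. The aCSF1R tumors stand above all others for Ms4a4b (mean -0.14 against -2.33 in control) and Ms4a8a, and among them for the Ms4a6 genes and Ms4a7.

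The genes most like each member were found by Pearson's r of log2(TPM + 1) over the 12 libraries after the mean of each library set was removed. These r values are descriptions, since the libraries share the difference between aCSF1R and the other groups. For Ms4a6c they were Fcgr1 (r = 0.998), Aif1 (0.994) and Ctsc (0.993). For Ms4a6b they were Ctsc (0.992), Fcgr3 (0.991) and Fcgr1 (0.99), and for Ms4a6d Cd84 (0.994), Gpr65 (0.993) and Fcgr3 (0.993). Fcgr1, also a gene of the macrophage list, and Fcgr3 encode Fc gamma receptors of myeloid cells, and Ctsc a lysosomal protease.

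Ms4a4b had other neighbours: Lat (0.951), an adaptor of T cell receptor signaling, Cd3d (0.941), a chain of that receptor, and Gimap7 (0.932). Lat and Cd3d are also genes of the T cell list. Within BF10, aCSF1R and IL-10-Fc the tumors had the same order by Ms4a4b as by the T cell list. The library sets were not removed here. In each of these groups the lowest tumor by both was its only higher-sum library, so that place cannot be told apart from the library set. In BF10, tumors 3, 6 and 7 held 23.5, 8.83 and 14.8 TPM of Ms4a4b and 95.2, 29.6 and 62.6 TPM of T cell markers. In control the order differed, since control 4 held more Ms4a4b than control 5 (14.2 against 10.2 TPM) but less of the list (35.3 against 42.0 TPM). Ms4a7 was most like Emb (0.977), Apobec1 (0.976) and Ckb (0.975), Ms4a4c most like Tgfbi (0.967), Fgl2 (0.967) and Fcrlb (0.967), Ms4a4a most like BE692007 (0.987), Fcgr1 (0.985) and Rgs10 (0.984), and Ms4a8a most like Hnmt (0.949), Tmem219 (0.943) and Gmfg-ps (0.942). Among the members, r was over 0.99 between each pair of Ms4a6 genes (0.992 for Ms4a6b and Ms4a6c, 0.995 for the other two pairs). With Ms4a4b, r was 0.513 for Ms4a4c, its closest relative in sequence, and 0.831 for Ms4a8a, the lowest and the highest of its 7 pairs.

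Of 15 further family genes 5 passed the filter (Ms4a3, Ms4a4d, Ms4a14, Tmem176a and Tmem176b) and 0 were called by limma in any of the 6 comparisons with either model (2 of 30 tests at an unadjusted p under 0.05 with group means). Tmem176a and Tmem176b, relatives of the family on chromosome 6 that dendritic cells and macrophages express, were 0.12 lower (a change of -0.12, 95% confidence interval -0.67 to 0.42) and 0.08 higher (-0.59 to 0.74) in aCSF1R than in control. Ms4a14 was -0.50 against control (-1.15 to 0.15). It was at 1.41, 0.699 and 0.455 TPM in control 4, 5 and 7 and at 0.374, 0.328 and 0.163 TPM in aCSF1R 4, 6 and 8. These values did not overlap, as in 3.68% of all tested genes with aCSF1R lower. At such low levels the pseudocount of 1 understates the change.

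Ms4a1, Ms4a2 and Ms4a3, known from other lineages, each peaked in a single tumor, and Ms4a2 stayed low throughout. Ms4a1 was at 15.8 TPM in control 7 and at most 1.49 TPM in the other 11 libraries, and the B cell list summed to 63.8 TPM in control 7 against 1.04 to 8.92 elsewhere. Ms4a3 was at 35.9 TPM in BF10 3, the tumor whose neutrophil markers summed to 18400 TPM, against 937 and 1895 TPM in the other BF10 tumors. Its next highest value, 8.77 TPM, was in aCSF1R 8, where neutrophil markers summed to 3392 TPM. Ms4a2 reached 1.43 TPM in aCSF1R 8, where Fcer1a, the alpha chain of the same IgE receptor, was at 14.6 TPM and mast cell and basophil markers summed to 352 TPM. Ms4a5, Ms4a10, Ms4a13, Ms4a15 and Ms4a18 were listed at 0 in all 12 libraries. BF10 3 also gave the highest BF10 values of Ms4a7, Ms4a4a, Ms4a6c, Ms4a4b and Ms4a8a. Ms4a6b and Ms4a6d were highest in BF10 6, and Ms4a4c in BF10 7. Beside its neutrophil sum, BF10 3 had the highest BF10 sums of the macrophage list (6697 TPM) and the T cell list (95.2 TPM). Its monocyte sum (1880 TPM) was below that of BF10 7 (2231 TPM).

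Genes that act with MS4A proteins were taken as a last group, a list of 12. In aCSF1R vs control 2 were called lower, the signaling adaptors Tyrobp (-2.60, adjusted p 0.00905) and Fcer1g (-2.31, adjusted p 0.000685), and 6 were called with the set as a term. The backgrounds were 0.568% and 2.01% of tested genes. The list's median change was -1.15, against 0.24 for all tested genes, and 11 of 12 genes had lower means. Fcer1g was at 249, 221 and 255 TPM in control and at 54.5, 46.4 and 43.8 TPM in aCSF1R, without overlap. Trem2, the receptor whose soluble form is tied to human MS4A genes, was at 17.0, 38.1 and 20.7 TPM in control and 9.12, 5.05 and 2.11 TPM in aCSF1R. Its change was -2.11 (adjusted p 0.137, and 0.000552 with the set as a term).

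Clec7a (dectin-1, the partner of Ms4a4a) had a change of -1.64 (adjusted p 0.0639, and 0.00636 with the set as a term). Vsig4 (the partner of Ms4a6d) was at most 3.24 TPM and had a change of -1.44, which was not called in either model. Tnfrsf18 (GITR, a receptor on T cells that is linked to Ms4a4b) had a change of -0.15 (95% confidence interval -0.92 to 0.62). Against aCSF1R, Tyrobp, Fcer1g and Trem2 were called higher in BF10 (2.43, 2.53 and 2.73) and in IL-10-Fc (2.20, 2.26 and 2.57), 3 of 12 in each, and 7 of 12 in each with the set as a term. The backgrounds were 0.735% for BF10 and 0.542% for IL-10-Fc (2.82% and 2.13% with the set as a term). In BF10 and in IL-10-Fc vs control 0 of 12 partners were called by limma in either model, with 0 and 1 at an unadjusted p under 0.05.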

How the data were processed

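RNA of 12 tumors was sequenced in bulk. Per the study's methods the authors aligned reads to mm10 with the annotation GRCm38.101, and the submitters' processing notes name STAR 2.7.5a, RSEM 1.3.3 and DESeq2 1.28.0. The authors deposited FPKM values per gene, and 4 tables of their own DESeq2 comparisons (log2 fold changes and p-values), which were not used. All 12 columns were matched by name, with 0 left over. As FPKM are normalized, count tests were not used. Each library was rescaled to TPM, and log2(TPM + 1) was fitted with limma 3.58.1 (eBayes with trend, R 4.3.3), 1 mean per group over 12 libraries, 8 residual degrees of freedom. The filter kept the 15504 genes that reached 1 TPM in 3 or more libraries, of 34194 above 0 in any library. A call needed an adjusted p under 0.05 and a 1.5-fold change. Intervals are from the same fit.

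Depth was estimated from the steps that 1 read makes in low FPKM values of single-transcript genes, with the read length of the study's methods (75 bases). The steps were sharpest at an assumed length of 65 bases, which gave 30500000 to 35900000 reads, so the depth is approximate. The library sets were split at an FPKM sum of 700000. The members, lists and tests were chosen with earlier results of these data known. All 8 members are named, with the family, partner and marker lists, and for each member the 3 genes with the highest r. Gene positions and coding sequences are from GENCODE M21 (GRCm38), promoters from RefSeq (GRCm38.p6), aligned with Biopython. The labels name no batch and do not say that the 3 samples of a group are separate mice, so p-values measure the spread between these samples, which may be partly technical. Alternatives were other scalings, filters and pseudocounts, sample weights, the library set as a term, subsets of libraries and leaving out each library.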

Additional observations from a re-analysis of the deposited data

How the results depend on the processing

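Depth limits Ms4a8a most. In aCSF1R vs control, 3 members were called in every fit that left out 1 library, and 5 to 7 of them in such fits with the set as a term (added after seeing the data), where Ms4a7 was called in 4 of 12 fits and Ms4a8a in 2. In BF10 vs aCSF1R the ranges were 3 to 5 and 6 to 7, and in IL-10-Fc vs aCSF1R 1 to 4 and 5 to 7. Shares of all tested genes are not given for these fits. The count in aCSF1R vs control was 2 with median-of-ratios scaling (Ms4a6c and Ms4a4c, with Ms4a6b and Ms4a6d lost), 6 with the set as a term, 6 with sample quality weights, 1 in the lower-sum libraries alone (2 tumors against 1) and 0 with the 2 groups only (fewer samples set the spread). In BF10 vs aCSF1R it was 3 with median-of-ratios scaling and 0 with the 2 groups only. In IL-10-Fc vs aCSF1R it was 2 with median-of-ratios scaling, 7 with the set as a term, 8 with weights and 0 with the 2 groups only. Weights called 1970 of all tested genes in this comparison. With median-of-ratios scaling, 136 of all tested genes were called in aCSF1R vs control, 141 in BF10 vs aCSF1R and 74 in IL-10-Fc vs aCSF1R. With the 2 groups only, 4 of all tested genes were called in aCSF1R vs control, 0 in BF10 vs aCSF1R and 12 in IL-10-Fc vs aCSF1R. Weights called 2 members (Ms4a4a and Ms4a4c) in BF10 vs control and 2 in IL-10-Fc vs control, where they called 8967 and 9274 of all tested genes. They called 9898 in aCSF1R vs control, where the lower-sum libraries alone gave 34. The causes were not tested.

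Deviations of same-numbered samples from their group means had r from -0.663 to 0.417 over 7 pairs. Pairs within a library set were positive (0.417 and 0.349) and pairs across the sets were all negative. The values thus followed the library sets, and the check cannot tell whether the numbers pair the samples. A replicate block, which left 2 residual degrees of freedom, called 0 members in aCSF1R vs control, BF10 vs aCSF1R and IL-10-Fc vs aCSF1R. Of all tested genes it called 0, 1 and 1 in these comparisons, so the loss was not particular to the members. With the block the sign turned for Ms4a6b (-0.23), Ms4a4b (-0.45) and Ms4a6d (-0.35) in BF10 vs control, Ms4a8a (-0.053) and Ms4a4b (-0.023) in IL-10-Fc vs control, Ms4a4a in aCSF1R vs control (0.076), Ms4a7 in BF10 vs IL-10-Fc (-0.021) and Ms4a4b in BF10 vs aCSF1R (-0.19).

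Other changes of sign were in values that the report does not call. For Ms4a6b, Ms4a4b and Ms4a6d in BF10 vs control the values were -0.17, -0.17 and -0.18 on FPKM without rescaling, -0.36, -0.35 and -0.37 with median-of-ratios scaling and -0.55, -0.11 and -0.54 with weights. Ms4a4b was -0.069 there with the set as a term, and Ms4a8a 0.41 in the lower-sum libraries. In IL-10-Fc vs control, Ms4a4c and Ms4a4a were -0.048 and -0.014 on FPKM, and Ms4a8a, Ms4a4c, Ms4a4b and Ms4a4a -0.17, -0.26, -0.18 and -0.23 with median-of-ratios scaling. With the set as a term Ms4a6b, Ms4a4c and Ms4a4a were 0.011, -0.14 and -0.36, with weights Ms4a6c was 0.012, and in the lower-sum libraries Ms4a6c, Ms4a6b, Ms4a4a and Ms4a6d were 0.086, 0.36, -0.21 and 0.18. Ms4a4b in aCSF1R vs control was 0.23 in the lower-sum libraries. In BF10 vs IL-10-Fc, Ms4a7 and Ms4a6b were -0.32 and -0.022 with weights and Ms4a4b 0.011 in the lower-sum libraries. Leaving out 1 library turned the sign of these uncalled values, whose ranges were Ms4a6b -0.34 to 0.23, Ms4a4b -0.31 to 0.35, Ms4a6d -0.32 to 0.24 (BF10 vs control), Ms4a6c -0.10 to 0.054, Ms4a8a -0.045 to 0.41, Ms4a6b -0.54 to 0.023, Ms4a4c -0.013 to 0.29, Ms4a4a -0.082 to 0.60 (IL-10-Fc vs control), Ms4a7 -0.16 to 0.62, Ms4a6b -0.030 to 0.39, Ms4a4b -0.56 to 0.10, Ms4a4a -0.022 to 0.95 (BF10 vs IL-10-Fc).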
